A study of Mus musculus with 8 samples.

Results

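The alcohol dehydrogenases (Adh), aldehyde dehydrogenases (Aldh), aldo-keto reductases (Akr) and flavin-containing monooxygenases (Fmo) were followed in mouse hepatocytes with and without v-erbA. Members were all probe sets whose gene symbol on the array platform begins with Adh, Aldh, Akr or Fmo and a digit, other than 2 aldehyde dehydrogenase genes not analysed here. The rule found 82 of the 45036 probe sets with values. Of these, 79 named a single gene and 3 named several at once, and the 79 covered 44 of the 18192 genes so named on the array. AML12 is a line of mouse hepatocytes that was established from mice carrying a transgene for human transforming growth factor alpha. v-erbA is the oncoprotein of an avian retrovirus, a mutated thyroid hormone receptor that acts mainly as a repressor. The 8 samples were AML12 cells without v-erbA and AML12 cells transfected with v-erbA, each with 1 µM retinoic acid (RA) or without it, and each taken at 3 h or at 24 h. Every combination was measured on 1 array. Whether the transfected line was a clone or a pool is not given in the sources used here, nor is a vector in the control line named, and the level of v-erbA itself was not analysed here.

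The enzymes of these families add or remove electrons at alcohol, carbonyl and heteroatom groups. In liver, alcohol dehydrogenases turn alcohols into aldehydes and aldehyde dehydrogenases turn aldehydes into acids, a sequence that also leads from retinol through retinal to retinoic acid. Aldo-keto reductases run the opposite way, from carbonyls to alcohols, and several act on steroids and bile acid precursors. Flavin-containing monooxygenases add oxygen to nitrogen, sulfur or carbonyl groups of drugs and dietary compounds.

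Array medians ranged from 71.2 to 76.1 units, and the pooled median of 73.5 units served as the level under which a probe set was called dim. Probe sets above that level on at least 2 of the 8 arrays were tested, 21319 in all, of which 53 were members. Of 10 hepatocyte markers listed, 8 had a probe set naming that gene alone, and 7 of them exceeded the level on all 8 arrays. Albumin ranged from 9364 to 11053 units over both lines and Ttr from 10526 to 10879, and neither they nor Fgb passed between lines. Apoa1 (-2.98 ± 0.30), Apoh (-1.95 ± 0.17), Cps1 (-1.37 ± 0.18), Apoa2 (-0.66 ± 0.21) and Hnf4a (-0.63 ± 0.05) were lower in v-erbA AML12. The 5 biliary and progenitor markers exceeded the level on all arrays too. In v-erbA AML12 Krt19 (-0.93 ± 0.07) was lower and Afp (0.75 ± 0.09) and Krt7 (0.47 ± 0.08) were higher. Epcam and Sox9 did not pass. Of the 4 macrophage markers 2, Ptprc and Cd68, lay under the level on every array. Ptprc read 14.8 to 23.4 units in AML12 and 45.4 to 55.8 in v-erbA AML12. Cd68 read 14.7 to 28.3 and 48.6 to 60.4 units. Csf1r exceeded the level on all 8 arrays, and Adgre1 only on those of 3 h. Of the 4 endothelial markers 2 lay under it on every array. The summed hepatocyte markers were 30326 to 42531 units in AML12 and 24019 to 27328 in v-erbA AML12. The 5 fibroblast markers, which summed to 334 to 367 units in AML12 and 398 to 479 in v-erbA AML12, did not move one way: Dcn (1.62 ± 0.17) and Acta2 (0.68 ± 0.13) were higher in v-erbA AML12, Col1a2 was lower (-0.48 ± 0.11, adjusted p = 0.00600 by limma), and Col1a1 did not pass. Pdgfrb, dim and not tested, read 25.9 to 39.6 and 2.40 to 17.5 units. The part of these shifts in the results below was not tested. In bulk RNA, fewer cells expressing a gene and less RNA per cell cannot be told apart. The untreated 24 h AML12 array departed most from additivity, with a root mean square residual of 0.123 on the log2 scale against 0.0910 to 0.110 on the other arrays, and its Apoa1 signal was 7093 units against 1823 to 2682 on the other AML12 arrays.

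Signals are quoted in the order untreated at 3 h, RA at 3 h, untreated at 24 h and RA at 24 h. Differences are on the scale log2(signal + 19.9), which understates the change of dim probe sets, and carry the standard error of the limma fit. Each combination had a single array, so the errors and p-values measure how far the arrays departed from additive effects of the 3 factors, not the spread between cultures.

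The line difference reached more members than either other factor. Of the 53 tested probe sets, 29 were lower in v-erbA AML12, 4 were higher and 20 did not pass an adjusted p of 0.05 (limma with Benjamini-Hochberg adjustment over all 21319 probe sets). Across all probe sets tested, 25.3 percent were lower and 26.8 percent were higher, 52.1 percent in all. The median difference was -0.24 over the members and 0.02 over all probe sets tested. With 1 probe set per gene, that of the highest mean signal, 18 of 35 genes were lower and 4 were higher. Aldh1b1 and 1 probe set of Fmo5 entered the test only through AML12 arrays, where they were brighter, and 1 of Aldh8a1 only through v-erbA arrays, so their direction was set by the filter. Without these 3, 27 of 50 probe sets and 17 of 34 genes were lower and 4 were higher in each count. On 24 member probe sets every v-erbA array lay under every AML12 array, and on 1 every v-erbA array lay above. Aldh1b1, whose direction was set by the filter, is among the 24. Over all probe sets tested, the arrays of the lines did not overlap for 36.9 percent.

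**Figure D1:**
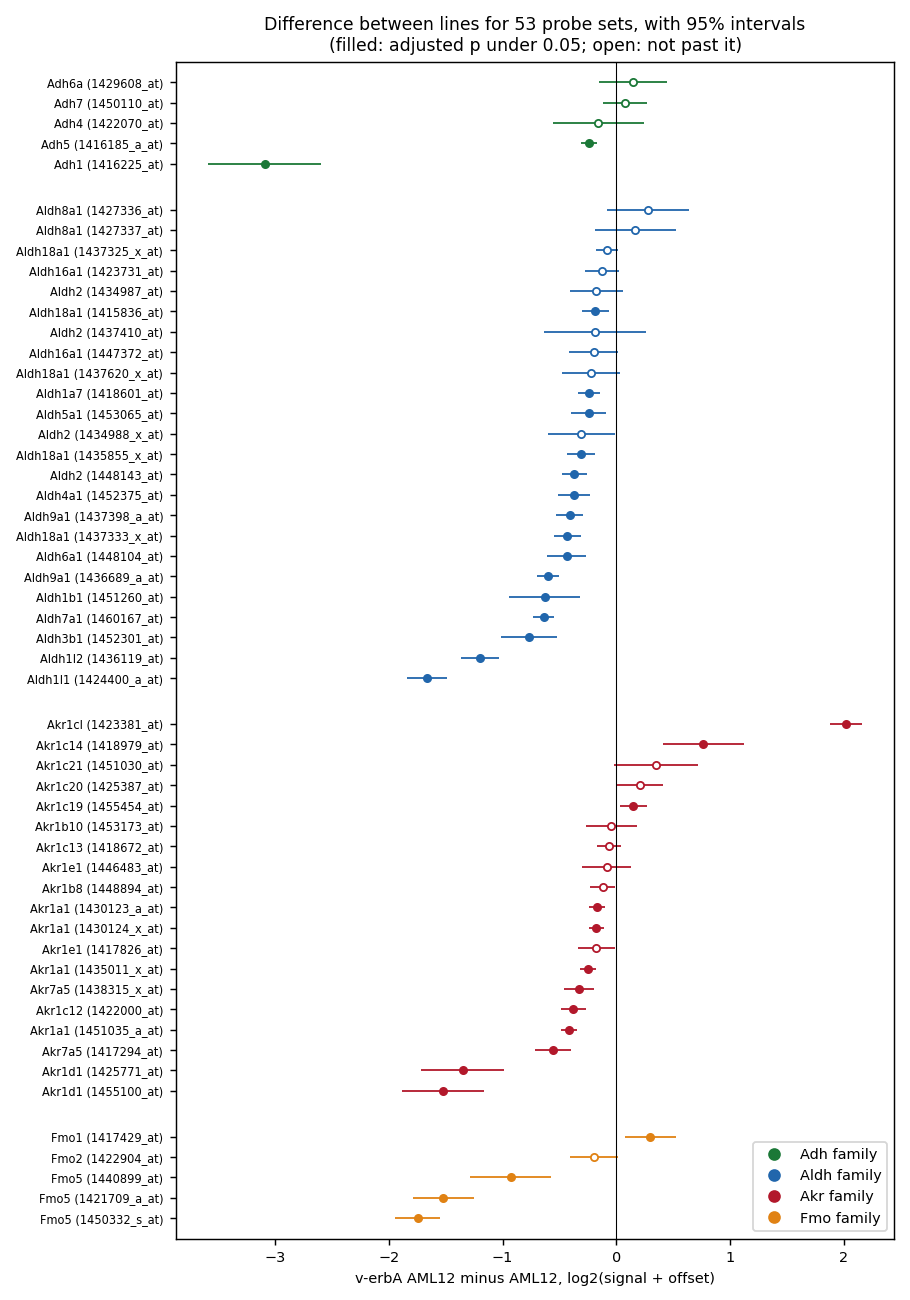
Difference between lines (v-erbA AML12 minus AML12, log2(signal + offset)) for each of the 53 tested member probe sets, ordered within family, with 95 percent intervals from the additive limma fit; filled points have an adjusted p under 0.05. The Aldh points lie mostly left of 0, with Aldh1l1 lowest at -1.67, while the Akr family spans from Akr1d1 at -1.53 to Akr1cl at 2.02 and Adh1 stands at -3.09.

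Of the 5 tested Adh genes, Adh1 and Adh5 were lower in v-erbA AML12 and the other 3 did not pass. Adh1 encodes the class I enzyme, the main ethanol-oxidizing alcohol dehydrogenase of liver, and also acts on retinol. Its signals were 387, 593, 1169 and 1328 units in AML12 and 68.0, 72.8, 77.2 and 75.1 in v-erbA AML12. The lines did not overlap, and the v-erbA values lay at the dim level in all conditions. The difference was -3.09 ± 0.22 (95 percent interval -3.59 to -2.60, adjusted p = 4.27e-06 by limma), the lowest among the members.

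The Adh1 promoter is shown because its gene had the lowest line difference of the members. The 250 bases before the annotated gene, from RefSeq on the assembly GRCm38.p6, plus strand, chr3:138277335-138277584, held none of the motifs searched, which are named further on, and no base is in capitals.
Adh1: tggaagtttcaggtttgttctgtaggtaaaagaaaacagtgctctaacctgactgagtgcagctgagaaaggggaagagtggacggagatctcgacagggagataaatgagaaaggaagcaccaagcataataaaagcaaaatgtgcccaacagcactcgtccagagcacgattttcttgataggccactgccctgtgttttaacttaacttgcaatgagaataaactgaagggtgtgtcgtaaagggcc

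Adh5 encodes the class III enzyme, which oxidizes the glutathione adduct of formaldehyde and reduces S-nitrosoglutathione. It read 3448, 3408, 3545 and 3291 units in AML12 and 2894, 2922, 2934 and 2843 in v-erbA AML12. All 4 v-erbA arrays were lower, by a small amount, with a difference of -0.24 ± 0.03 (adjusted p = 1.95e-04). Adh4, the class II enzyme of liver, was near the dim level with 65.9, 48.5, 101 and 80.6 units in AML12 and 60.8, 82.6, 55.3 and 53.9 in v-erbA AML12, a difference of -0.16 ± 0.18 (-0.56 to 0.24). Adh7, the class IV enzyme best known from the stomach, gave 145, 111, 117 and 119 units against 127, 122, 137 and 135, with 0.08 ± 0.09 (-0.12 to 0.27). The lines overlapped for both. Adh6a differed by 0.15 ± 0.13 (-0.15 to 0.45). In the RefSeq gene table the 7 Adh genes are neighbours on chromosome 3 in the order Adh7, Adh1, Adh6a, Adh6b, Adh6-ps1, Adh4 and Adh5. Adh1 and Adh6a, which adjoin, thus had differences of -3.09 and 0.15.

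Of 24 tested Aldh probe sets 15 were lower in v-erbA AML12, none was higher and 9 did not pass, with a median of -0.31. By gene, 11 of 14 were lower, or 10 of 13 without Aldh1b1. The lowest were a pair of folate enzymes, Aldh1l1 of the cytosol and Aldh1l2 of mitochondria, which both release the formyl group of formyltetrahydrofolate as carbon dioxide. Aldh1l1 measured 1303, 1368, 2315 and 1911 units in AML12 and 396, 476, 611 and 606 in v-erbA AML12, so that the highest v-erbA value was under the lowest AML12 value. Its difference was -1.67 ± 0.08 (-1.84 to -1.49, adjusted p = 3.70e-07). Aldh1l2 measured 272, 296, 253 and 350 units against 99.0, 114, 117 and 134, again without overlap, and differed by -1.20 ± 0.07 (-1.37 to -1.03, adjusted p = 1.91e-06).

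The 225 bases before Aldh1l1 are shown as the promoter of the lowest Aldh gene (RefSeq, GRCm38.p6, plus strand, chr6:90550543-90550767). Capitals mark a C/EBP core match, TTGCNNAA, and the hexamer AGGTCA, which reads TGACCT on the strand printed.
Aldh1l1: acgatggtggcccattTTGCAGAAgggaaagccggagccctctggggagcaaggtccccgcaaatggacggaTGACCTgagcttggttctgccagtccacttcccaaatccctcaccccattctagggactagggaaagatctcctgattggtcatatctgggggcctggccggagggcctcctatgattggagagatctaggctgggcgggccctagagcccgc

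Aldh3b1, which oxidizes lipid-derived aldehydes, was the next lowest gene. It gave 307, 324, 523 and 315 units in AML12 and 193, 180, 248 and 192 in v-erbA AML12, with no overlap and a difference of -0.77 ± 0.11 (adjusted p = 3.02e-04). Aldh7a1, an enzyme of lysine breakdown, read 1817, 1884, 2403 and 2345 units against 1194, 1261, 1436 and 1479 and differed by -0.64 ± 0.04 (adjusted p = 2.26e-06). Aldh9a1, an enzyme of carnitine synthesis, was lower on both tested probe sets, by -0.60 ± 0.04 and -0.41 ± 0.05. Aldh6a1 of valine breakdown (-0.44 ± 0.08), Aldh4a1 of proline breakdown (-0.37 ± 0.06) and Aldh5a1, the succinic semialdehyde dehydrogenase (-0.24 ± 0.07), were lower as well. The Aldh5a1 call was lost without the untreated or the RA-treated 24 h v-erbA array (adjusted p of 0.0581 and 0.0551).

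Aldh2 is the mitochondrial enzyme that clears acetaldehyde. Its brightest probe set read 2576, 2471, 3272 and 3002 units in AML12 and 2155, 2072, 2262 and 2206 in v-erbA AML12, without overlap, a difference of -0.37 ± 0.05 (adjusted p = 2.01e-04). Another 3 Aldh2 probe sets gave differences between -0.31 and -0.18 that did not pass. Aldh1b1, a second mitochondrial acetaldehyde dehydrogenase, gave 45.4, 60.6, 81.1 and 80.4 units in AML12 and 34.7, 34.5, 28.9 and 43.8 in v-erbA AML12. It exceeded the dim level only on the AML12 arrays of 24 h, so its difference of -0.63 ± 0.14 (adjusted p = 0.00374) is given as a description. Aldh1a7, a cytosolic mouse enzyme, read 3646, 4137, 5256 and 5642 units against 3252, 3714, 3903 and 4822. Each v-erbA array was under its AML12 counterpart although the ranges overlapped, and the difference was -0.24 ± 0.04 (adjusted p = 0.00122).

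Aldh18a1 starts proline synthesis from glutamate, and its 5 probe sets gave unequal line differences. The brightest read 816, 832, 925 and 1026 units in AML12 and 764, 797, 879 and 957 in v-erbA AML12, a difference of -0.08 ± 0.04 that did not pass (adjusted p = 0.149). The other 4 ranged from -0.43 to -0.18, and 3 of them passed. The call of 1 of those, at -0.18 ± 0.05 (adjusted p = 0.0132), was lost without the RA-treated 24 h v-erbA array, where the adjusted p was 0.0503. Aldh8a1 and Aldh16a1, with 2 tested probe sets each, did not pass.

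Aldh1a2 and Aldh1a3, both enzymes that make retinoic acid from retinal, were dim. Aldh1a2 measured 68.5, 64.7, 12.2 and 11.8 units in AML12 and 66.1, 54.1, 7.22 and 16.9 in v-erbA AML12, under the pooled median on all 8 arrays. The 3 probe sets of Aldh1a3 reached at most 39.3 units. Aldh3a1, known as an enzyme of cornea and of livers exposed to dioxin-like compounds, measured between 3.08 and 23.4 units. None of the 3 genes was tested, and a signal under the pooled median does not show that a transcript was absent.

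The Akr family held the gene that was higher in v-erbA AML12 by the widest margin. Of 19 tested Akr probe sets 3 were higher, 9 were lower and 7 did not pass. Akr1a1 supplied 4 of the 9, and Akr1d1 and Akr7a5 2 each. By gene, 3 of 13 were higher and 4 were lower. Among all probe sets tested 26.8 percent were higher and 25.3 percent lower. Akr1cl, a member of the aldo-keto reductase 1C group whose gene lies on chromosome 1 away from the rest of that group, measured 154, 151, 327 and 322 units in AML12 and 651, 730, 1232 and 1494 in v-erbA AML12. Every v-erbA array was above every AML12 array. The difference was 2.02 ± 0.06 (1.88 to 2.16, adjusted p = 2.94e-08). The second Akr1cl probe set was dim, between 18.7 and 33.5 units in AML12 and between 36.4 and 74.1 in v-erbA AML12, and was not tested.

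Akr1d1, the steroid reductase that acts in bile acid synthesis, was lower on both of its probe sets. The brighter read 783, 792, 1259 and 547 units in AML12 and 253, 242, 344 and 244 in v-erbA AML12. The other read 361, 351, 667 and 279 units against 130, 128, 193 and 125. Neither probe set overlapped between lines, and the differences were -1.53 ± 0.16 (adjusted p = 4.50e-05) and -1.35 ± 0.16 (adjusted p = 1.11e-04).

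Only 55 bases of the Akr1d1 window lie before the annotated gene (RefSeq, GRCm38.p6, plus strand, chr6:37529923-37529977). They are shown because Akr1d1 was the lowest Akr gene; the capitals mark 2 copies of TGACCT, the hexamer AGGTCA on the opposite strand.
Akr1d1: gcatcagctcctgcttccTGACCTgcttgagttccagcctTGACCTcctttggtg

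The neighbouring 1C genes of chromosome 13 differed among themselves. Akr1c14, a hydroxysteroid dehydrogenase, was higher in v-erbA AML12: it read 499, 367, 646 and 272 units in AML12 and 682, 755, 882 and 638 in v-erbA AML12, with a slight overlap between untreated 24 h AML12 and RA-treated 24 h v-erbA AML12. Its difference was 0.76 ± 0.16 (adjusted p = 0.00286). Akr1c19 read 2007, 1659, 2224 and 1595 units against 2248, 1923, 2445 and 1696, a difference of 0.15 ± 0.05 (adjusted p = 0.0412) that was lost when arrays were centred on their medians (0.11, adjusted p = 0.108), without the mean-variance trend (adjusted p = 0.0979) and without the untreated 3 h, RA-treated 3 h or RA-treated 24 h AML12 array or the RA-treated 3 h or untreated 24 h v-erbA array (adjusted p from 0.0624 to 0.151). Akr1c12 was lower, with 2507, 2453, 2593 and 2293 units in AML12 and 1845, 1887, 2071 and 1762 in v-erbA AML12 and a difference of -0.38 ± 0.05 (adjusted p = 1.41e-04). Akr1c13 (-0.06 ± 0.05), Akr1c20 (0.21 ± 0.09) and Akr1c21 (0.35 ± 0.16) did not pass. Akr1c12 and Akr1c13 are close copies, and a probe set that the platform assigns to both, which was not tested, gave 3904 to 4552 units in AML12 and 3513 to 4147 in v-erbA AML12. The split of signal between these genes is therefore uncertain. Akr1c6, a hydroxysteroid dehydrogenase of liver, exceeded the dim level on 1 array: it read 58.1, 48.7, 144 and 31.8 units in AML12 and 37.7, 44.3, 57.0 and 16.2 in v-erbA AML12, and was not tested.

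Akr1a1, the general aldehyde reductase, was lower on all 4 probe sets by small amounts, from -0.42 to -0.17. The brightest read 9257, 9091, 9004 and 8287 units in AML12 and 7810, 7928, 8098 and 7857 in v-erbA AML12, without overlap, a difference of -0.17 ± 0.03 (adjusted p = 0.00144). Akr7a5, an aflatoxin aldehyde reductase, read 1229, 1165, 1503 and 1239 units against 926, 953, 1069 and 1123 and differed by -0.33 ± 0.06 (adjusted p = 0.00112). Its second probe set differed by -0.56 ± 0.07.

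Akr1b8, a reductase related to aldose reductase, read 1186, 1270, 1073 and 1171 units in AML12 and 1081, 1091, 1102 and 1037 in v-erbA AML12. The lines overlapped and the difference of -0.12 ± 0.05 (-0.23 to -0.01) did not pass (adjusted p = 0.0668). Akr1b10 read 139, 127, 102 and 78.8 units against 111, 109, 103 and 98.5, a difference of -0.05 ± 0.10 (-0.27 to 0.18). Akr1b3 and Akr1b7 were not analysed here.

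Among the Fmo genes Fmo5 was lower and Fmo1 slightly higher in v-erbA AML12. Fmo5, a liver monooxygenase that inserts oxygen next to carbonyl groups, read 275, 844, 582 and 1237 units in AML12 and 86.0, 226, 147 and 328 in v-erbA AML12 on its brightest probe set. Only RA-treated 24 h v-erbA AML12, at 328, exceeded the lowest AML12 value. The difference was -1.75 ± 0.09 (-1.94 to -1.55, adjusted p = 5.73e-07), and the other 2 probe sets gave -1.52 ± 0.12 and -0.93 ± 0.16, the last of them above the dim level on 3 arrays, all of AML12. Fmo1, a broad drug-oxidizing enzyme, lay near the dim level with 61.1, 64.1, 69.9 and 86.1 units against 92.9, 75.8, 92.8 and 101. Its difference of 0.30 ± 0.10 passed (adjusted p = 0.0312) but not when arrays were centred on their medians (0.26, adjusted p = 0.0540) or without the untreated or RA-treated 3 h AML12, untreated 24 h AML12, untreated 3 h v-erbA, untreated 24 h v-erbA or RA-treated 24 h v-erbA array (adjusted p from 0.0552 to 0.122). Fmo2 gave -0.20 ± 0.09 (adjusted p = 0.106).

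**Figure D2:**
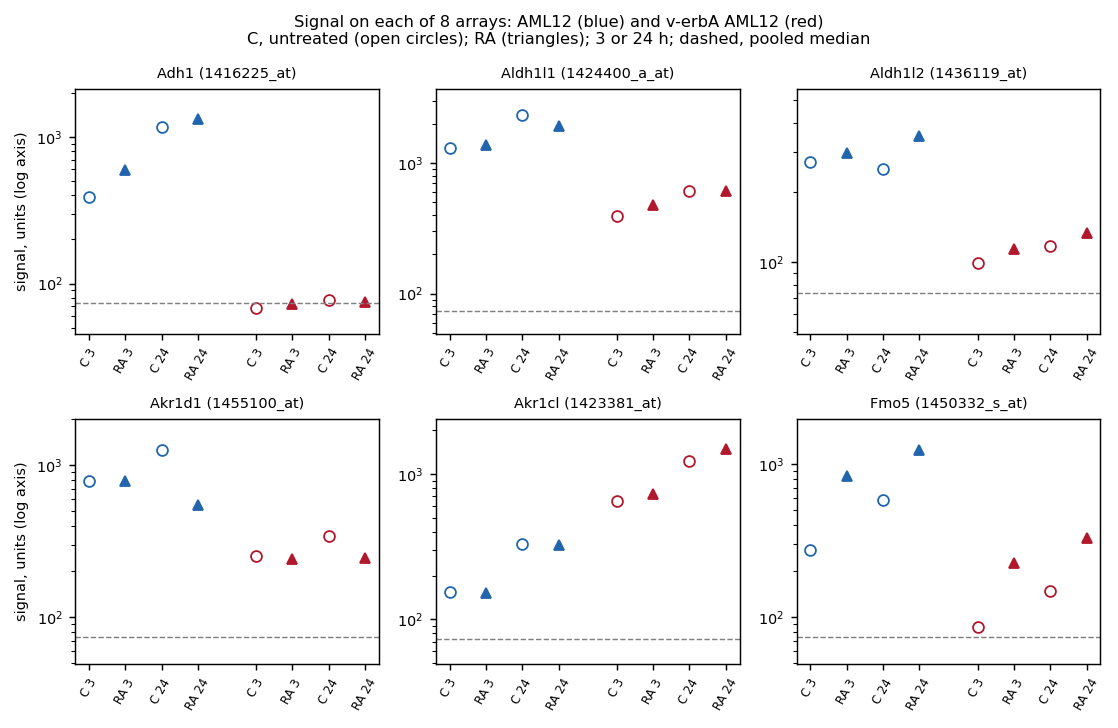
Signal of 6 member probe sets on each of the 8 arrays, on log axes in units, with AML12 in blue and v-erbA AML12 in red, untreated arrays as open circles, RA arrays as triangles and the pooled median of 73.5 units dashed; each point is 1 array. Adh1, Aldh1l1, Aldh1l2 and Akr1d1 are lower in every v-erbA array, Akr1cl is higher, and Fmo5 is lower in v-erbA AML12 and higher with RA in each of the 4 pairs.

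The RA comparison asks which members RA changed and whether v-erbA altered that change. Over both lines and times 4 of 53 members passed, 3 higher and 1 lower, against 0.769 percent higher and 0.45 percent lower among all probe sets tested (1.22 percent in all). The 3 that rose were the 3 tested probe sets of Fmo5, and the one that fell was Akr1c19. The median RA difference was -0.03 over the members and -0.00 over all probe sets tested.

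Fmo5 was higher with RA in each of the 4 line and time pairs on all 3 probe sets. Its brightest went from 275 to 844 units at 3 h and from 582 to 1237 at 24 h in AML12, and from 86.0 to 226 and from 147 to 328 in v-erbA AML12. These are ratios of 3.07 and 2.12 in AML12 and of 2.63 and 2.23 in v-erbA AML12, each between 2 single arrays. The fitted difference was 1.22 ± 0.09 (1.02 to 1.42, adjusted p = 0.00101).

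The second Fmo5 probe set read 148, 300, 145 and 383 units in AML12 and 53.8, 98.9, 38.2 and 82.9 in v-erbA AML12, a difference of 0.93 ± 0.12 (adjusted p = 0.00782). The third read 42.9, 159, 88.9 and 181 units against 28.4, 70.9, 33.2 and 60.1, where all 4 v-erbA values are dim, a difference of 0.97 ± 0.16 (adjusted p = 0.0205). The brightest probe set passed under every alternative setting. The others lost the call without the mean-variance trend, with adjusted p of 0.0591 and 0.0849, and the third also without the RA-treated 3 h AML12 (0.121), RA-treated 24 h AML12 (0.0722), RA-treated 3 h v-erbA (0.0506) or untreated 24 h v-erbA array (0.0829). The Fmo5 window of the promoter table lies wholly inside the annotated gene and is not printed.

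Akr1c19 fell with RA in all 4 pairs, from 2007 to 1659 and from 2224 to 1595 units in AML12 and from 2248 to 1923 and from 2445 to 1696 in v-erbA AML12. The difference was -0.37 ± 0.05 (-0.49 to -0.25, adjusted p = 0.0135). RA arrays lay under all untreated arrays for this probe set, as RA and untreated arrays did not overlap for 1.36 percent of all probe sets tested. The call was lost without the mean-variance trend (adjusted p = 0.0938), without the RA-treated 3 h AML12 array (adjusted p = 0.0626) and without the untreated 24 h v-erbA array (adjusted p = 0.0698). Among members that did not pass, Aldh1a7 gave 0.19 ± 0.04 (adjusted p = 0.0790, and 0.0369 with arrays paired by line and time), Akr1c14 -0.48 ± 0.16 (adjusted p = 0.275) and Adh1 0.20 ± 0.22 (adjusted p = 0.812).

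Within AML12, 2 members rose and none fell with RA, against 0.253 percent higher and 0.117 percent lower among all probe sets tested (0.371 percent in all). Both were Fmo5 probe sets, at 1.31 ± 0.13 (adjusted p = 0.00728) and 1.11 ± 0.16 (adjusted p = 0.0283), and the third gave 1.20 ± 0.21 (adjusted p = 0.0615). Without the mean-variance trend neither passed (adjusted p = 0.147 for both), and the second lost its call without the untreated 3 h, untreated 24 h or RA-treated 24 h AML12 array (adjusted p of 0.0517, 0.154 and 0.258). Within v-erbA AML12 none of 53 passed by limma, where 0.00938 percent of all probe sets passed. An unadjusted limma p under 0.05 was reached by 7 members and by 726 of all 21319 probe sets. The smallest adjusted p was 0.0568, for Fmo5 at 1.14 ± 0.13. The second Fmo5 probe set gave 0.75 ± 0.16 (adjusted p = 0.341) and Akr1c19 -0.37 ± 0.08 (adjusted p = 0.388), the same estimate as its -0.37 ± 0.08 in AML12 (adjusted p = 0.116).

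Tested directly, the RA effect differed between lines for none of 53 members by limma, and for 0 percent of all probe sets. An unadjusted limma p under 0.05 was reached by 5 members and by 394 of all 21319 probe sets. For Fmo5 the differences, v-erbA AML12 minus AML12, were -0.17 (-0.58 to 0.24), -0.35 (-0.86 to 0.16) and -0.45 (-1.13 to 0.24). These intervals hold a smaller, an equal and a larger response in v-erbA AML12. The 3 members with the smallest p were Fmo2 at 0.44 ± 0.14 (0.12 to 0.76), a probe set of Aldh2 at 0.59 ± 0.20 (0.14 to 1.05) and Akr1c14 at 0.65 ± 0.25 (0.08 to 1.22), all with an adjusted p of 1.00. Fmo2 read 224, 158, 250 and 178 units in AML12 and 173, 161, 171 and 182 in v-erbA AML12. The Aldh2 probe set read 101, 72.7, 107 and 76.1 units against 66.6, 80.1, 56.8 and 67.6. In all 3 the RA arrays of AML12 were lower than the untreated ones at both times.

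**Figure D3:**
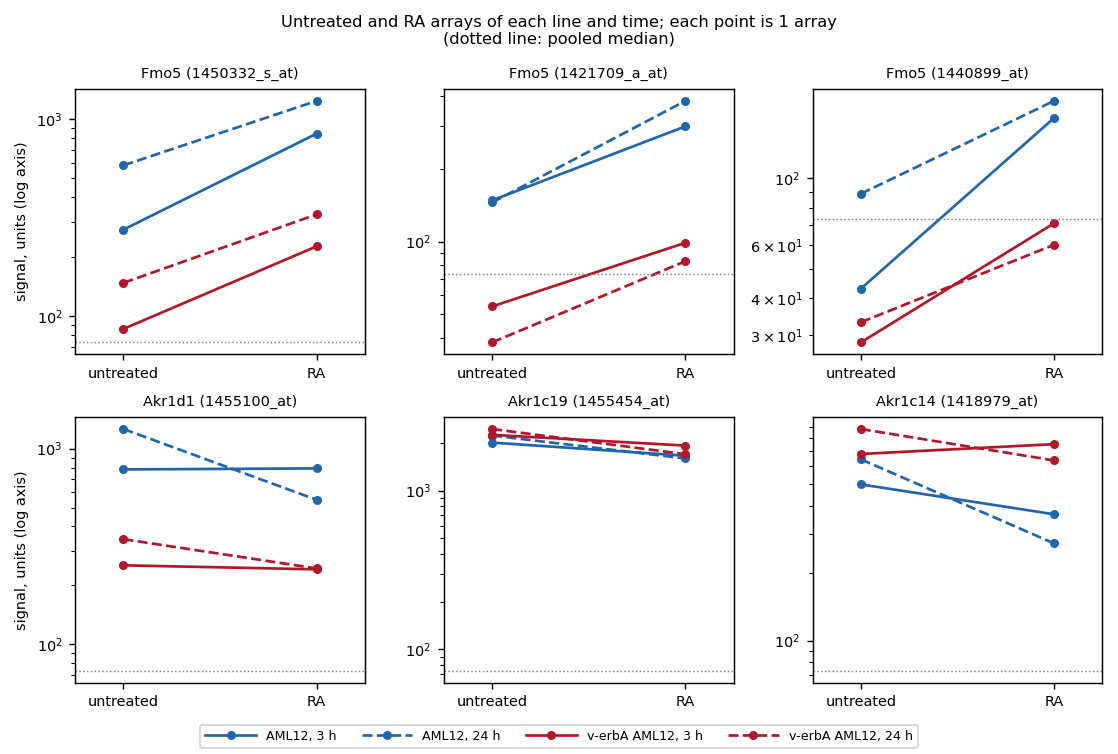
Untreated and RA arrays joined for each line and time, for the 3 Fmo5 probe sets, Akr1d1, Akr1c19 and Akr1c14; log axes in units, AML12 blue, v-erbA AML12 red, 3 h solid, 24 h dashed, the pooled median dotted, and each point 1 array. Fmo5 rises along all 12 lines, Akr1c19 falls along all 4, and Akr1d1 falls most from untreated to RA-treated AML12 at 24 h, from 1259 to 547 units.

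At 3 h only the brightest Fmo5 probe set passed among the members, at 1.38 ± 0.11 (adjusted p = 0.00412), with 0.281 percent called among all; without the RA-treated 3 h AML12 array its adjusted p was 0.0824. Without the mean-variance trend the limma adjusted p of this 3 h call was 0.154. At 24 h 2 Fmo5 probe sets rose, by 1.06 ± 0.11 and 1.05 ± 0.17 on the log2 scale, and 3 members fell. Among all, 0.582 percent were higher and 0.751 percent lower (1.33 percent in all). The 3 were Akr1c19 (-0.50 ± 0.05, adjusted p = 0.00504) and both Akr1d1 probe sets (-0.88 ± 0.13, adjusted p = 0.0189, and -0.82 ± 0.14, adjusted p = 0.0288). In AML12 at 24 h the dimmer Akr1d1 probe set, given first here, went from 667 to 279 units and the brighter from 1259 to 547. In v-erbA AML12 they went from 193 to 125 and from 344 to 244. The Akr1d1 calls rested in part on single arrays: without the untreated 24 h AML12 array, which stood apart, the differences were -0.65 (adjusted p = 0.135) and -0.63 (adjusted p = 0.249), and without the RA-treated one -0.68 (adjusted p = 0.150) and -0.54 (adjusted p = 0.139). The second Fmo5 probe set also lost its 24 h call without either of these arrays (adjusted p of 0.169 and 0.173).

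None of 53 members passed the test of the RA effect at 24 h against that at 3 h by limma, where 0.00938 percent of all probe sets passed. An unadjusted limma p under 0.05 was reached by 9 members and by 1548 of all 21319 probe sets. The smallest p belonged to Akr1d1, at -0.85 ± 0.19 (adjusted p = 0.376) and -0.80 ± 0.20 (adjusted p = 0.464), and to Akr1c19, at -0.25 ± 0.07 (adjusted p = 0.555). In single pairs of arrays, 8 member probe sets differed at least 2-fold with RA in 1 or more pairs. AML12 at 24 h held 3 higher and 5 lower (1.41 percent of all probe sets in either direction), and at 3 h it held 3 higher (0.291 percent). v-erbA AML12 held 2 higher at 24 h (0.253 percent) and 1 higher at 3 h (0.0985 percent). All higher members were Fmo5 probe sets, and the 5 lower were Akr1c14, Akr1c21, both of Akr1d1 and a probe set of Aldh2 that went from 231 to 84.7 units. With dim arrays set to the pooled median, 7 members in place of 8 were past 2-fold in AML12 at 24 h and 1 in place of 2 in v-erbA AML12 at 24 h. Akr1c21, from 79.0 to a dim 31.5 units, was then at least 1.08-fold lower, and the second Fmo5 probe set in v-erbA AML12 at least 1.13-fold higher.

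Between 3 h and 24 h, 18 members were higher and 2 lower at 24 h, and 33 did not pass, against 17.2 percent higher and 14.2 percent lower (31.4 percent in all) among all probe sets tested. The median was 0.18 over the members and 0.02 over all. On 4 member probe sets every 24 h array lay above every 3 h array and on 2 every 24 h array lay below, where 17.8 percent of all probe sets did not overlap in either direction. The dimmest Aldh18a1 probe set, tested only through its 24 h arrays, is among the 4. Without the untreated 3 h AML12 array, or without the RA-treated 3 h AML12 array, 13 members passed in place of 20. The Aldh family supplied 12 of the 18, with none of its 24 lower, but 5 of the 12 were probe sets of Aldh18a1. With each gene counted by its brightest probe set in the same fit, 7 of 14 Aldh genes were higher. Over the 4 families 13 of 35 genes were higher and 2 lower. The dimmest Aldh18a1 probe set entered the test only through the 24 h arrays, as did Aldh1b1 and 1 of Aldh8a1, and without these 3, 17 of 50 members were higher and 2 lower, with 11 of 21 Aldh probe sets higher. The 4 arrays of 24 h share a probe set with no value that the 3 h arrays have, and time and any difference in array processing cannot be told apart.

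Akr1cl was higher at 24 h by 0.98 ± 0.06 (adjusted p = 1.91e-06), with 1.00 ± 0.09 in AML12 and 0.96 ± 0.09 in v-erbA AML12. Aldh18a1 was higher on 4 probe sets by 0.20 to 0.37. The lowest of these calls was lost without the RA-treated 3 h or 24 h array of either line (adjusted p from 0.0524 to 0.0798). The dimmest of the 5 differed by 1.20 ± 0.11 and read 63.1, 41.6, 128 and 146 units in AML12 and 42.5, 34.6, 119 and 123 in v-erbA AML12. Aldh1a7 (0.40 ± 0.04), Aldh1l1 (0.56 ± 0.08), Aldh7a1 (0.30 ± 0.04) and Akr1c20 (0.61 ± 0.09) were higher too. Akr1c21 was lower at 24 h, with 143, 112, 79.0 and 31.5 units in AML12 and 134, 130, 99.3 and 84.5 in v-erbA AML12, a difference of -0.74 ± 0.16 (adjusted p = 0.00744). Akr1b10 gave -0.29 ± 0.10 (adjusted p = 0.0491), a call lost under 11 of 17 alternatives with adjusted p of up to 0.160, 6 of them with 1 array left out, and also with arrays paired by line and treatment (0.0633). Only the brightest Fmo5 probe set passed, at 0.68 ± 0.09, while the others gave -0.06 and 0.23.

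Adh1 had the widest gap between lines in its time difference. In AML12 it went from 387 to 1169 units without RA and from 593 to 1328 with RA, 1.34 ± 0.14 (adjusted p = 1.70e-04). In v-erbA AML12 it went from 68.0 to 77.2 and from 72.8 to 75.1, 0.09 ± 0.14 (adjusted p = 0.718). The line difference was -2.47 ± 0.14 at 3 h and -3.72 ± 0.14 at 24 h. The test of that change gave -1.25 ± 0.19 (-1.69 to -0.81), which did not pass over all probe sets (adjusted p = 0.0677) but did with the offset at the pooled median (adjusted p = 0.0457). With an offset of 1 no member passed this test by limma (smallest adjusted p = 0.0934), nor without the mean-variance trend (0.218). With all 2-way interactions 1 member passed. The v-erbA values lay at the dim level, where the scale compresses differences. Over all probe sets tested 0.0985 percent passed this test, and none of 53 members did by limma. An unadjusted limma p under 0.05 was reached by 7 members and by 1818 of all 21319 probe sets. The next smallest p belonged to Aldh2, at -0.23 ± 0.06 (adjusted p = 0.347), and Adh4, at -0.81 ± 0.25 (adjusted p = 0.424). Within AML12 17 members were higher and 2 lower at 24 h, and within v-erbA AML12 10 were higher and none lower. These counts are out of 53 members and keep the probe sets that entered the test only through the 24 h arrays. Among all probe sets 11.4 percent were higher and 11.9 percent lower in AML12, and 9.53 and 6.97 percent in v-erbA AML12.

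**Figure D4:**
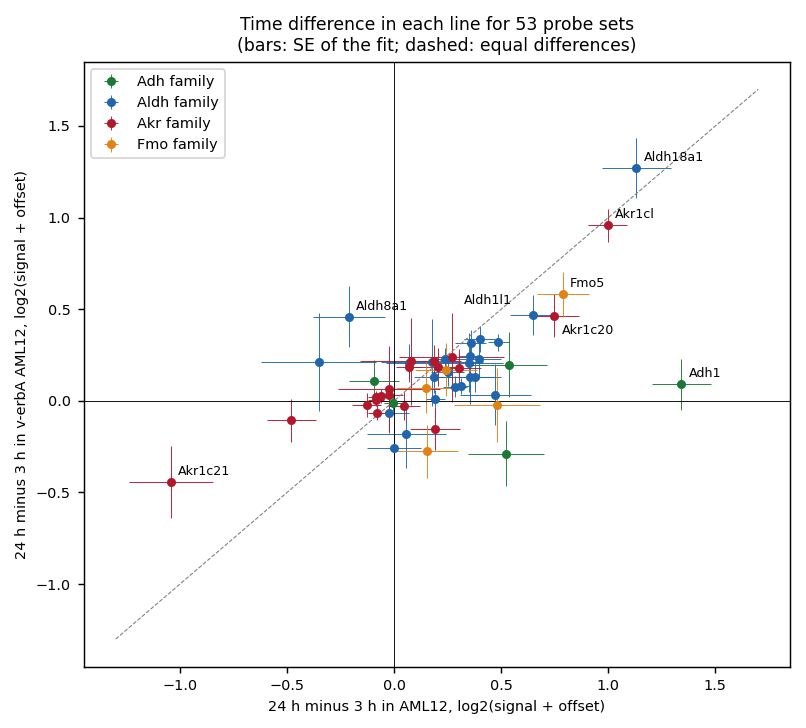
Difference between 24 h and 3 h in AML12 (horizontal) and in v-erbA AML12 (vertical) for the 53 tested member probe sets, in log2(signal + offset), with bars of 1 standard error of the limma fit and a dashed line of equal differences. Akr1cl and the dimmest Aldh18a1 probe set lie near that line at about 1, and Adh1 lies far below it at 1.34 in AML12 and 0.09 in v-erbA AML12.

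Some dim probe sets read far lower at 24 h than at 3 h. A dim one of Akr1b10 read 70.6, 62.0, 3.15 and 5.48 units in AML12, with 51.5, 49.4, 10.9 and 2.90 in v-erbA AML12. A dim Fmo2 probe set read 64.8, 47.3, 4.93 and 4.54 units in AML12 and 39.4, 41.9, 0.865 and 9.97 in v-erbA AML12, and the Aldh1a2 signals above had the same shape. These dim probe sets, chosen after their values were seen, were lower on all 24 h arrays than on any 3 h array in both lines, and none passed the filter. Other dim probe sets were higher at 24 h, also without overlap. A dim Adh5 probe set read 20.9 to 25.7 units at 3 h and 27.9 to 36.8 at 24 h. A dim probe set assigned to Aldh3b2 and Aldh3b3 together had medians of 20.6 units at 3 h and 59.9 at 24 h. The share of dim probe sets moving either way was not tested. In all, 26 of the 79 single-gene probe sets were dim, 20 of them on all 8 arrays, and 9 of 44 genes had no tested probe set: Adh6-ps1, Adh6b, Aldh1a2, Aldh1a3, Aldh3a1, Aldh3b2, Akr1c6, Akr1c18 and Fmo4. A further 12 probe sets were tested but exceeded the level on fewer than 8 arrays, among them Adh1, Fmo1 and 2 of Fmo5.

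A list of other enzymes of alcohol, carbonyl and xenobiotic metabolism held 45 genes, of which 41 had a probe set naming that gene alone and 33 were tested. Each gene is given by its probe set of the highest mean signal, whereas the shares beside the counts cover every probe set tested. No gene was removed for entering the test through 1 line only. In v-erbA AML12 21 of these were lower, 8 higher and 4 not passed, with a median of -0.34, against 25.3 percent lower, 26.8 percent higher and a median of 0.02 among all probe sets tested. The lowest were Hsd11b1, which regenerates active glucocorticoid (-1.92 ± 0.24), Bco1, which cleaves carotene to retinal (-1.87 ± 0.14), and the carbonyl reductases Cbr3 (-1.75 ± 0.10) and Cbr1 (-1.34 ± 0.08). The highest were the monoamine oxidase Maoa (0.93 ± 0.05) and the retinol dehydrogenase Rdh10 (0.61 ± 0.07). With RA 2 of 33 rose, Dhrs3, a retinal reductase (0.67 ± 0.10), and Rdh10 (0.42 ± 0.07), and none fell, where 0.769 percent of all probe sets rose and 0.45 percent fell. At 24 h 8 were higher and 5 lower, against 17.2 and 14.2 percent of all.

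The promoter table held 37 windows for 34 of the 44 member genes, each taken here as the 250 bases before a transcript start. The hexamer AGGTCA, the core letters bound by many nuclear receptors, was found on either strand in 9 of 37 member windows (24.3 percent) and in 14.0 percent of all 32851 windows. The 9 belonged to Adh4, Akr1b10, Akr1d1, Akr7a5, Aldh1l1, Aldh3b1, Aldh6a1, Fmo2 and Fmo4. Of the 37 windows 17 lay partly or wholly inside the annotated gene. Of the 9 with the hexamer, 1 lay wholly before the gene, 4 partly inside it and 4 wholly inside it, those of Aldh3b1, Aldh6a1, Fmo2 and Fmo4. Direct repeats of AGGTCA with 1, 2 or 5 bases of any kind between the copies were in 0 member windows and in 0.0335, 0.00913 and 0.00913 percent of all. TTGCNNAA was in 6 member windows (16.2 percent) against 9.56 percent of all, and TTGCNNCAA in 1 against 1.74 percent. TGACNNNGC, a core of antioxidant response elements, was in 4 (10.8 percent) against 10.2 percent, and TATAAA in 7 (18.9 percent) against 12.4 percent. Matches to the single hexamer are also part of any direct repeat. These are matches of letters, with no measurement of binding.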

How the data were processed

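Expression was measured on 8 Affymetrix arrays, 1 per combination of line, treatment and time, and groups were taken from the sample titles. Of the 4 samples titled 24 h, 3 have descriptions naming 3 h, and the titles were followed. The authors deposited a linear signal intensity for each probe set on each array. How probes were summarized and arrays scaled is not given in the sources used here, and the deposited scaling was kept. RNA was extracted from cultured cells and labelled with biotin, per the labels. Detection calls were not used. Precision is limited by the number of arrays.

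Names came from the platform annotation, in which 34944 named 1 gene, 932 several and 9160 none. All 44 member genes had their identifiers in RefSeq's GRCm38.p6 gene table, with 0 symbols changed. Of 45037 probe sets listed, 1 lacked values and was left out. Intensities were transformed to log2(signal + 19.9), the offset being the 20th percentile of all values, and probe sets with at least 2 arrays above the pooled median were tested.

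Additive limma 3.58.1 fits in R 4.3.3 had 4 residual degrees of freedom, and models with 1 interaction had 3. Empirical Bayes moderation used a mean-variance trend, and Benjamini-Hochberg adjustment ran over all probe sets tested, with a threshold of 0.05. Figures used matplotlib 3.10.9 in Python 3.11.15. Ratios of single arrays were counted at 2-fold or more where an array exceeded the pooled median. Any member could be named. Array values are given for the members with the lowest and highest called line differences of each family, those called for RA or, where none passed, those with the smallest p, and a list of widely studied members. Others are given by ranges. The members, the lists of other oxidoreductases and cell type markers, the motifs and the tests were chosen with earlier results of these data known. Alternatives changed the offset, scaling, filter, trend, model, level of the fit and arrays. Those for single-array ratios and for the list of other oxidoreductases, and the fits with arrays paired by the other 2 factors, were added after seeing the data.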

Additional observations from a re-analysis of the deposited data

How the results depend on the processing

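Of the results called in the additive model, 29 of 33 line differences, 1 of 4 RA differences and 12 of 20 time differences passed under every alternative run, and none reversed. No called RA result within a line or time did so, 5 at 24 h, 2 in AML12 and 1 at 3 h. The count of line differences stayed between 30 and 34 when each array was left out, and was 22 genes with 1 probe set per gene. RA differences numbered 4, but 1 without the mean-variance trend, 12 with all 2-way interactions, 2 with 1 probe set per gene, and 2 to 5 without each array. For RA in AML12 the count of 2 became 0 without the trend, 12 with all 2-way interactions, 1 with 1 probe set per gene and 1 to 3 without each array. For RA in v-erbA AML12 the count of 0 became 1 with an offset of 1, with arrays centred on their medians and with no filter, 5 with all 2-way interactions, and 0 to 1 without each array. With all 2-way interactions, 1 member passed for RA by line and 3 for RA by time, both 0 otherwise, with ranges of 0 to 0 and 0 to 1 without each array. For the line difference by time the count of 0 became 1 with the offset at the pooled median and 1 with all 2-way interactions, with 0 to 1 without each array. The model with all 2-way interactions has 1 residual degree of freedom, and the cause of these shifts was not tested. Time differences numbered 20, 18 higher and 2 lower, but 23 with no filter, 18 higher and 5 lower, 14 without the trend, 27 with all 2-way interactions, 14 with 1 probe set per gene and 13 to 21 without each array. Without an array, its combination is estimated from the rest of the model. The 29 other oxidoreductases called between lines became 26 to 30, and the 8 members past 2-fold in single pairs stayed 8 under both scalings. The labels carry no replicate numbers. With arrays paired by the 2 other factors as a block, which leaves 3 residual degrees of freedom, 34 line, 5 RA and 20 time differences passed; Aldh1a7 joined the RA calls and Akr1b10 left the time calls. Dim signals limit Adh1 and Fmo5 in v-erbA AML12, Aldh1b1 and Fmo1.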
